A study of Sus scrofa with 17 samples.

Results

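The fast fibre contractile genes described here are MYH2, MYL1, MYL11, TNNC2, TNNI2, TNNT3, ACTN3, MYBPC2, PVALB and MYOZ1. They were chosen by gene symbol as genes for proteins of the contractile machinery of fast muscle fibres, and they are 10 of the 31908 Ensembl genes of the count table. All 10 passed the filter on low counts, which kept 14203 genes for testing. RNA came from the longissimus muscle of male Large White × Duroc piglets that were 28 days old at the start, housed singly in metabolic cages and pair-fed, with 5 days of adaptation and 2 weeks of trial. The control piglets (n = 6) ate a diet of wheat, maize and soybean meal with 0% seaweed. In the UL group (n = 6) the diet held 7% of the green seaweed Ulva lactuca, and in the ULU group (n = 5) it held 7% Ulva lactuca and 0.01% ulvan lyase, which breaks down the ulvan in the walls of this seaweed. UL vs control thus bears on the seaweed, ULU vs UL on the enzyme and ULU vs control on both together. Each piglet gave 1 library of single reads of 75 nt, and control replicates carry the numbers 21 to 26, UL replicates 27 to 32 and ULU replicates 40 to 44.

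Muscle fibres shorten when myosin heads of the thick filament pull on the actin of the thin filament, and the speed of a fibre follows mainly from which myosin heavy chain it makes. Fast fibres use their own versions of the myosin light chains, of the troponin subunits that let calcium switch the thin filament on, and of several proteins of the thick filament and the Z-disc, while slow fibres use another gene for nearly each of these parts. The longissimus of the pig is known as a muscle in which fast fibres prevail.

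Levels are in CPM, the counts of a gene per 1000000 counted reads of its library, scaled with edgeR's TMM factors. The libraries held from 16137365 to 26546810 reads assigned to genes. The lowest count of any of the 10 genes in any library was 1583, for PVALB, against the 3 counts taken as the smallest detectable, which lay between 0.130 and 0.195 CPM, a limit that covers counting error only. Together the 10 genes took between 10.95% and 14.8% of all counted reads in control, between 12.3% and 15.9% in UL and between 13.2% and 15.003% in ULU. The marker genes of skeletal muscle were abundant, with a mean of 67349 CPM in control for ACTA1, the actin of the thin filament, 17169 CPM for CKM, the muscle creatine kinase, and 10880 CPM for NEB, the giant nebulin of the thin filament. TTN had no row of its own.

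A pair of libraries stood apart for these genes. Control replicate 22 had the lowest of the 17 values for 9 of the 10 genes, and control replicate 26 had it for MYL1. ULU replicate 43 had the highest of the 17 values for 6 genes, namely MYH2, MYL1, TNNT3, ACTN3, MYBPC2 and MYOZ1. Their TMM factors were also the extremes of the 17, at 1.21 for control replicate 22 and 0.765 for ULU replicate 43. Control replicate 21 was highest within its diet for 7 genes, UL replicate 29 was lowest within its diet for 6, and ULU replicate 42 was lowest within its diet for 6.

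**Figure D1:**
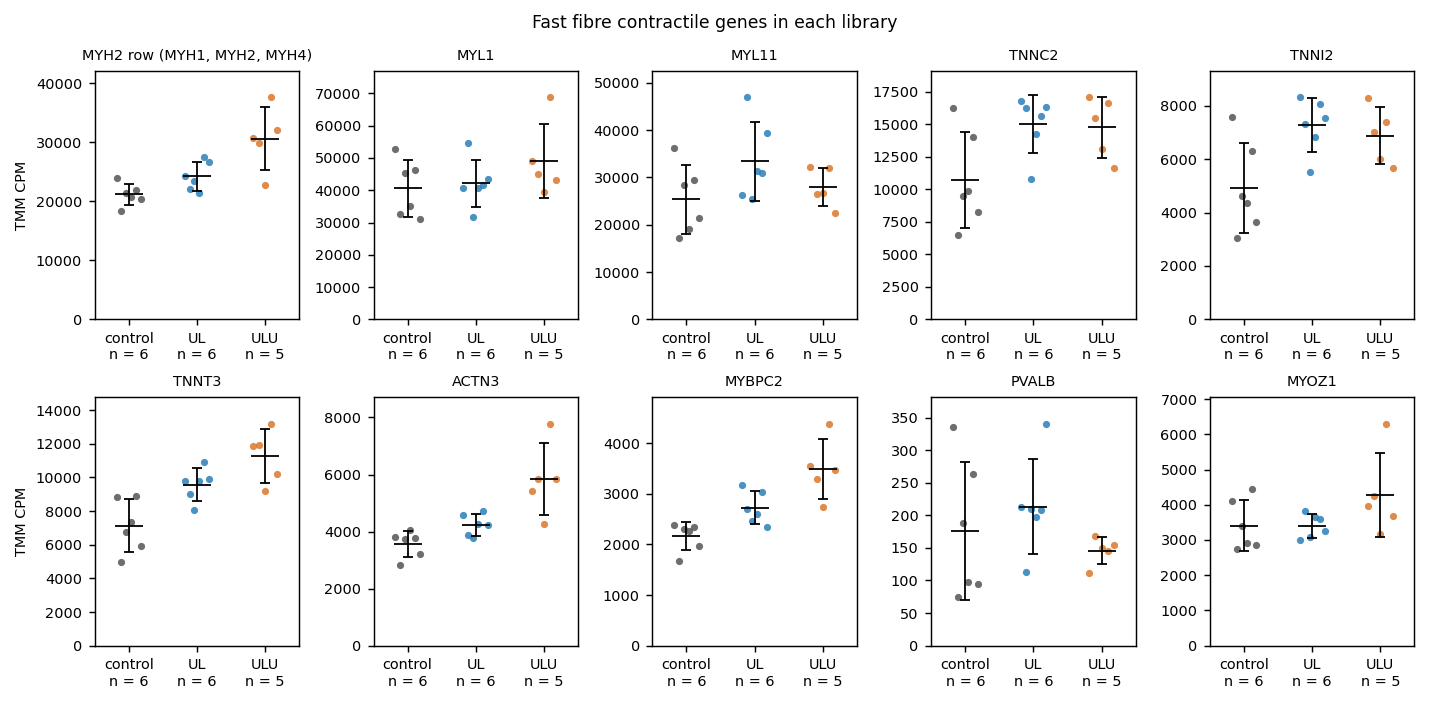
Level of each of the 10 fast fibre genes in every library, in CPM after TMM scaling, by diet (control and UL n = 6, ULU n = 5). Each point is 1 piglet, the lines show the mean and 1 SD, and the ULU points of TNNT3, ACTN3 and MYBPC2 all lie above the control points.

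The myosin heavy chain comes first, since it is the motor. The row named MYH2 (ENSSSCG00000029441, chromosome 12, 55190429 to 55278539 of Sscrofa11.1) does not stand for a single gene: of its exon bases, 36.7% lay in the RefSeq gene MYH2, 31.8% in MYH1 and 30.9% in MYH4. These are the adult fast myosins of the IIa, IIx and IIb fibre types, and they cannot be told apart in this row. Reads that aligned to several sites were left out of the counts, and how many reads the row lost in this way was not measured. It is called the MYH2 row here. In control it had 18408 CPM in the lowest, 21117 in the median and 24024 in the highest library, and in UL 21353, 23881 and 27493 CPM in the same order. The 5 ULU libraries, replicates 40 to 44, had 30811, 29971, 22774, 37659 and 32135 CPM. ULU replicate 42 fell within the range of the controls, and the other 4 ULU libraries lay above every control and every UL library. Control averaged 21177 ± 1855 CPM (mean ± SD, n = 6), UL 24246 ± 2469 (n = 6) and ULU 30670 ± 5335 (n = 5). The log2 fold change was 0.53 in ULU vs control (standard error 0.13, 1.45-fold, adjusted p = 0.0397 with edgeR's quasi-likelihood test and Benjamini-Hochberg adjustment over the 14203 genes), and 0.34 with library totals as the only scaling. In bulk tissue, a change in the share of cells of a type and a change in RNA per cell cannot be told apart, and this holds for each difference given here. The log2 fold change of the row was 0.20 in UL vs control (adjusted p = 0.627) and 0.34 in ULU vs UL (adjusted p = 0.380) with the same edgeR test.

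The myosin light chains stabilise the lever arm of the myosin head. MYL1 (ENSSSCG00000016157, chromosome 15, 113034279 to 113063231) encodes the essential light chain of fast fibres and had the highest mean CPM of the 10 genes in each diet. It ranged from 31180 to 52917 CPM in control, from 31803 to 54604 in UL and from 39442 to 68806 in ULU. Only ULU replicate 43 lay above all controls, and the other ULU libraries were among them. Its log2 fold change was 0.27 in ULU vs control (standard error 0.18, edgeR adjusted p = 0.445) and 0.05 in UL vs control (standard error 0.17, edgeR adjusted p = 0.945), a value that turned to -0.0065 when libraries were scaled by their totals only, to -0.0055 without control replicate 26 and to -0.033 without UL replicate 28. In ULU vs UL it was 0.22 (edgeR adjusted p = 0.742). With other tools and settings the value in ULU vs control was as low as 0.086. Without ULU replicate 43 the value was 0.12 in ULU vs control and 0.07 in ULU vs UL.

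MYL11 (ENSSSCG00000007799, chromosome 3, 17938129 to 18017343) encodes the regulatory light chain of fast fibres, which RefSeq names MYLPF. The controls ranged from 17285 to 36290 CPM, the UL libraries from 25509 to 46941 and the ULU libraries from 22586 to 32168. UL replicates 28 and 32 were above all controls, no ULU library was, and the diets overlapped throughout. The gene had its largest log2 fold change in UL vs control, at 0.40 (standard error 0.19, edgeR adjusted p = 0.470). In ULU vs control it was 0.14 (standard error 0.20, edgeR adjusted p = 0.744), -0.02 with library totals only, 0.06 without control replicate 22 and 0.09 without ULU replicate 43. MYL11 was lower in ULU than in UL, at -0.26 on the log2 scale (standard error 0.20, edgeR adjusted p = 0.722), and at -0.13 without UL replicate 28.

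The troponin complex sits on the thin filament and holds 3 subunits. TNNC2 (ENSSSCG00000007424, chromosome 17, 48024685 to 48028638), the subunit that binds calcium, averaged 10746 ± 3696 CPM in control (mean ± SD, n = 6), 15020 ± 2249 for UL (n = 6) and 14778 ± 2345 for ULU (n = 5). TNNI2 (ENSSSCG00000033260, chromosome 2, 1251527 to 1253893), the subunit that holds the filament off in the absence of calcium, averaged 4914 ± 1698, 7268 ± 1003 and 6871 ± 1067 CPM (mean ± SD) in the same order. For both genes 4 of the 6 controls lay below every UL and every ULU library, while control replicates 21 and 25 lay among them. TNNC2 stood 0.48 above control for UL and 0.46 above it for ULU on the log2 scale (edgeR adjusted p = 0.378 and 0.220). For TNNI2 these values were 0.56 and 0.48 (edgeR adjusted p = 0.279 and 0.184). The step from UL to ULU was -0.02 for TNNC2 and -0.08 for TNNI2 on the log2 scale, each smaller than its standard error of 0.20 (edgeR adjusted p = 0.982 and 0.926).

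TNNT3 (ENSSSCG00000031903, chromosome 2, 989931 to 1317600) encodes the subunit that ties the fast troponin complex to tropomyosin. The span of its row includes TNNI2, but the 2 rows share no exon bases. It had 4990 CPM in the lowest, 7050 in the median and 8920 in the highest control library, and 8059, 9792 and 10909 CPM in UL. The ULU libraries, replicates 40 to 44, had 11896, 11905, 9207, 13200 and 10176 CPM. All 5 ULU libraries lay above all 6 controls, replicate 42 by the narrowest margin, and 5 of the 6 UL libraries did so too. Control averaged 7130 ± 1562 CPM (mean ± SD, n = 6), UL 9576 ± 958 (n = 6) and ULU 11277 ± 1579 (n = 5). The log2 fold change was 0.66 in ULU vs control (standard error 0.15, 1.58-fold, edgeR adjusted p = 0.0280), 0.43 in UL vs control (standard error 0.15, edgeR adjusted p = 0.296) and 0.24 in ULU vs UL (edgeR adjusted p = 0.622).

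ACTN3 (ENSSSCG00000038323, chromosome 2, 5858845 to 5874124) encodes the actinin that crosslinks actin at the Z-disc of fast fibres. The lowest, median and highest control libraries had 2828, 3754 and 4069 CPM, and those of UL had 3765, 4245 and 4731 CPM. In ULU, replicates 40 to 44 had 5408, 5855, 4272, 7786 and 5841 CPM. Every ULU library was above every control, 4 of the 5 were above every UL library as well, and ULU replicate 43 stood highest. Control averaged 3573 ± 456 CPM (mean ± SD, n = 6), UL 4240 ± 379 (n = 6) and ULU 5832 ± 1268 (n = 5). Over all 17 libraries ACTN3 had the largest log2 fold change of the 10 genes in ULU vs control, 0.71 (standard error 0.14, 1.63-fold, edgeR adjusted p = 0.0128). In ULU vs UL it was 0.46 (standard error 0.14, edgeR adjusted p = 0.252) and in UL vs control 0.25 (standard error 0.13, edgeR adjusted p = 0.524). Of its exon bases, 21.0% overlap CTSF on the opposite strand, and the counting did not use strand. The CTSF row was low, with means of 3.03, 3.16 and 1.94 CPM in control, UL and ULU. Reads that fell on both genes were left out of both rows, so these means do not cover the shared bases, and ACTN3 lost its reads there.

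MYBPC2 (ENSSSCG00000003218, chromosome 6, 55281801 to 55310295) encodes the fast form of myosin-binding protein C, which bridges thick and thin filaments. The controls had 1679 CPM in the lowest, 2290 in the median and 2382 in the highest library, and the UL libraries 2345, 2649 and 3176 CPM. ULU replicates 40 to 44 had 3540, 3288, 2743, 4383 and 3474 CPM. The controls sat close together apart from replicates 22 and 26, all ULU libraries lay above them, and 5 of the 6 UL libraries did. Control averaged 2159 ± 278 CPM (mean ± SD, n = 6), UL 2721 ± 327 (n = 6) and ULU 3486 ± 591 (n = 5). Its log2 fold change was 0.69 in ULU vs control (standard error 0.13, 1.61-fold, edgeR adjusted p = 0.0122, the smallest of the 10 genes). The other comparisons gave 0.33 in UL vs control (standard error 0.13, edgeR adjusted p = 0.350) and 0.36 in ULU vs UL (standard error 0.13, edgeR adjusted p = 0.339).

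PVALB (ENSSSCG00000000138, chromosome 5, 10955491 to 10973289) encodes parvalbumin, a soluble protein that takes up calcium and speeds relaxation in fast fibres. It was the member with the fewest counts and, among controls and among UL libraries, the widest spread. Its controls ranged from 74.6 to 335 CPM, with a standard deviation of 60.5% of the mean, its UL libraries from 113 to 341 and its ULU libraries from 111 to 168. The controls fell into 3 low libraries, replicates 22, 24 and 26, and 3 higher ones, and all ULU libraries lay between these 2 sets. PVALB was lower in ULU vs control, at -0.27 on the log2 scale (standard error 0.33, edgeR adjusted p = 0.698), a value that turned to 0.02 without control replicate 21. It was -0.056 with limma and -0.42 without control replicate 22. In UL vs control it was 0.28 (standard error 0.31, edgeR adjusted p = 0.796), between 0.10 without UL replicate 32 and 0.57 without control replicate 21, and in ULU vs UL -0.55 (standard error 0.33, edgeR adjusted p = 0.577).

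MYOZ1 (ENSSSCG00000010304, chromosome 14, 76444540 to 76452799) encodes a myozenin, a Z-disc protein of fast fibres that binds actinin and calcineurin. Controls ranged from 2750 to 4438 CPM, UL libraries from 2995 to 3814 and ULU libraries from 3181 to 6304. ULU replicate 43 lay far above the other 4, which were within the range of the controls. The log2 fold change was 0.33 in ULU vs control (standard error 0.17, edgeR adjusted p = 0.303), -0.0043 in UL vs control (standard error 0.16, edgeR adjusted p = 0.995) and 0.33 in ULU vs UL (standard error 0.17, edgeR adjusted p = 0.495). With other tools and settings the value in ULU vs control was as low as 0.13. Without ULU replicate 43 the value was 0.14 in ULU vs control and 0.15 in ULU vs UL. In UL vs control it was 0.014 with limma and 0.010 with upper quartile scaling, and it lay between 0.0080 and 0.085 without control replicate 21 or 25 or UL replicate 27, 29 or 32.

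**Figure D2:**
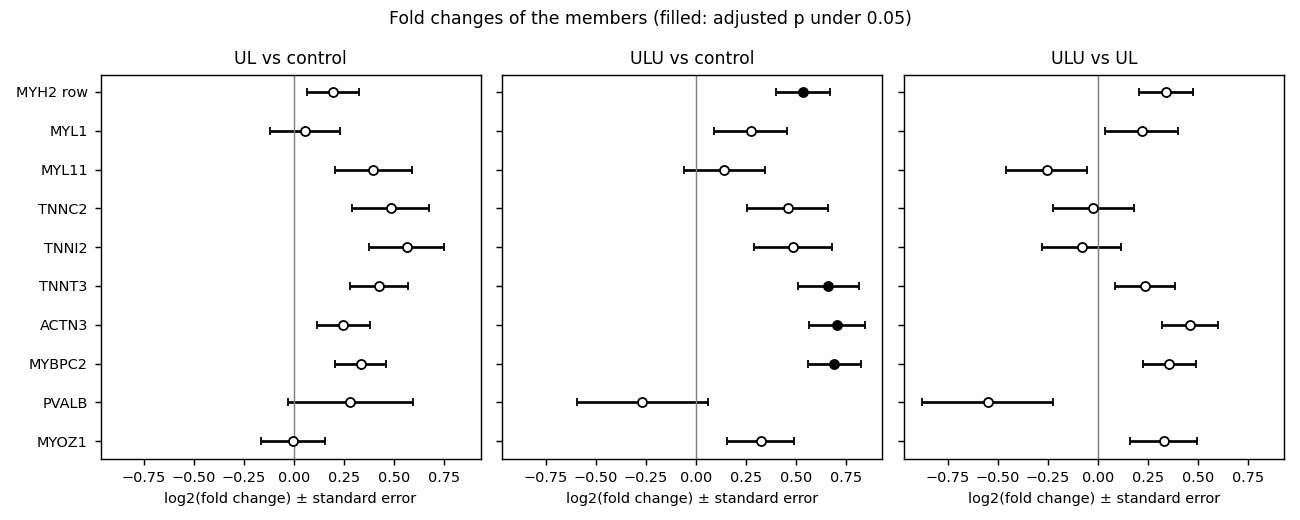
Log2 fold change of each fast fibre gene in the 3 comparisons, with 1 standard error to each side, from edgeR on all 17 libraries. Filled points passed an adjusted p under 0.05, which was so for the MYH2 row, TNNT3, ACTN3 and MYBPC2 in ULU vs control.

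In ULU vs control, 4 of the 10 genes passed an adjusted p under 0.05 with edgeR, where 2.98% of the 14203 genes did. All 4 were higher in ULU, and 1.99% of all genes passed in that direction. None of the 10 also reached the log2 fold change of 1 that the study's methods ask of a differentially expressed gene. At an unadjusted p under 0.05 there were 6 genes with edgeR, TNNC2 and TNNI2 being the others, against 18.9% of all genes. The diets did not overlap for 3 of the 10, TNNT3, ACTN3 and MYBPC2, against 3.39% of all genes. The members' median log2 fold change was 0.47 and that of all genes -0.028, and 9 of 10 members were higher in ULU, PVALB being the exception. With library totals as the only scaling, which moved the median of all genes to -0.21, the members' median was 0.31, MYL11 joined PVALB below 0, and the same 4 genes passed.

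The call of 4 genes depended on single libraries. Over all genes, 423 passed with every library, 147 to 799 with a library left out and 59 to 1057 under the other settings. Without control replicate 22, 23 or 26, or without ULU replicate 40, 41 or 43, 2 genes passed, and these were ACTN3 and MYBPC2 each time. Without control replicate 24, UL replicate 29 or ULU replicate 44, 3 passed, all but the MYH2 row. Without ULU replicate 43 the log2 fold changes were 0.45 for the MYH2 row, 0.60 for TNNT3, 0.58 for ACTN3 and 0.59 for MYBPC2 (edgeR adjusted p = 0.0851, 0.0652, 0.0318 and 0.0300). Without control replicate 22 they were 0.50, 0.58, 0.65 and 0.64 in the same order (edgeR adjusted p = 0.0772, 0.0516, 0.0301 and 0.0271). When edgeR was run on the control and ULU libraries alone, 1 gene passed, MYBPC2, and with no filter on low counts ACTN3 and MYBPC2 passed. DESeq2 and limma each passed the same 4 genes as edgeR, where DESeq2 passed 6.3% of all genes on these diets and 7.44% on all libraries, and limma 2.96%.

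In UL vs control, 0 of the 10 genes passed with edgeR, as did 0% of all 14203 genes, and 0 of the 10 passed with DESeq2 and limma. Over all genes limma passed 0 as well, while DESeq2 passed 163 on these diets and 173 on all 17 libraries. At an unadjusted p under 0.05 there were 4 with edgeR, TNNC2, TNNI2, TNNT3 and MYBPC2, against 10.8% of all genes. No member was without overlap between these diets, and 0.852% of all genes were. The members' median log2 fold change was 0.31 beside -0.0027 for all genes, and 9 of the 10 were higher in UL, a count that was 8 with library totals only and 10 with upper quartile scaling. Both comparisons use the same 6 controls, so control replicate 22 stands low in both.

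Between the seaweed diets, in ULU vs UL, edgeR passed 0 of the 10 genes and 0.0352% of all genes. With limma these values were 0 of the 10 and 0.0563%. DESeq2 passed ACTN3 alone, on these diets (DESeq2 adjusted p = 0.0327) and on all 17 libraries (DESeq2 adjusted p = 0.0216), where it passed 1.65% and 1.57% of all genes it tested. With edgeR 3 genes had an unadjusted p under 0.05, the MYH2 row, ACTN3 and MYBPC2, against 10.8% of all genes. None of the 10 was without overlap, against 1.75% of all genes. The median was 0.23 for the members and -0.021 for all genes, or 0.10 and -0.13 with library totals only. The members were split in this comparison: 6 were higher in ULU, while MYL11, TNNC2, TNNI2 and PVALB were lower, and TNNC2 took values between 0.00087 and 0.052 when UL replicate 27, 28 or 32 or ULU replicate 42 or 44 was left out. The troponin subunits TNNC2 and TNNI2 thus had most of their difference from control already in UL, whereas ACTN3 had the larger step between UL and ULU, and whether these genes differ in that respect was not tested.

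The order of the levels can be compared between genes only per length, here as CPM per kb of exon. In control MYL11 came first with 19342 CPM per kb, followed by TNNC2 with 6675, TNNI2 with 5189, MYL1 with 4038, MYOZ1 with 1871, the MYH2 row with 1083, TNNT3 with 748, ACTN3 with 746, MYBPC2 with 453 and PVALB with 242. The ranges over control libraries overlapped between the neighbours TNNC2 and TNNI2, TNNI2 and MYL1, TNNT3 and ACTN3, and MYBPC2 and PVALB. Within a library, TNNC2 was above TNNI2 and MYBPC2 above PVALB in 6 of 6 controls, TNNI2 above MYL1 in 5 and TNNT3 above ACTN3 in 2. In UL the order was the one of control, from 25470 CPM per kb for MYL11 to 294 for PVALB, and neighbours overlapped for TNNC2 and TNNI2, for the MYH2 row and TNNT3, and for TNNT3 and ACTN3, although each of these orders held in 6 of 6 libraries. In ULU, where MYL11 had 21343 and PVALB 201 CPM per kb, ACTN3 with 1217 came before TNNT3 with 1182. The ranges in ULU overlapped for these neighbours, for TNNC2 and TNNI2, for TNNI2 and MYL1, for MYOZ1 and the MYH2 row, and for the MYH2 row and ACTN3. ACTN3 was above TNNT3 in 2 of 5 ULU libraries, and the other orders held in 5 of 5. Several of these lengths go beyond the gene: the share of exon bases in the RefSeq gene of the name was 35.3% for MYL1, 36.7% for the MYH2 row, 38.6% for TNNC2, 61.9% for ACTN3 and 68.8% for MYOZ1. The exon bases of PVALB lie wholly within the span of RefSeq NCF4 as well. The levels per kb of these 6 rows, and their places in the order, share that limit. For MYL1 and TNNC2, another RefSeq gene held 30.5% and 31.3% of the exon bases, so these rows may not stand for a single gene.

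Spread differed between members. The MYH2 row had the narrowest spread of the 10 in control, with a standard deviation of 8.76% of the mean, and 17.4% in ULU. The troponins TNNC2 and TNNI2 varied by 34.4% and 34.6% among controls but by 14.97% and 13.8% among UL libraries. ACTN3 went the other way, from 12.8% in control and 8.93% in UL to 21.7% in ULU.

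**Figure D3:**
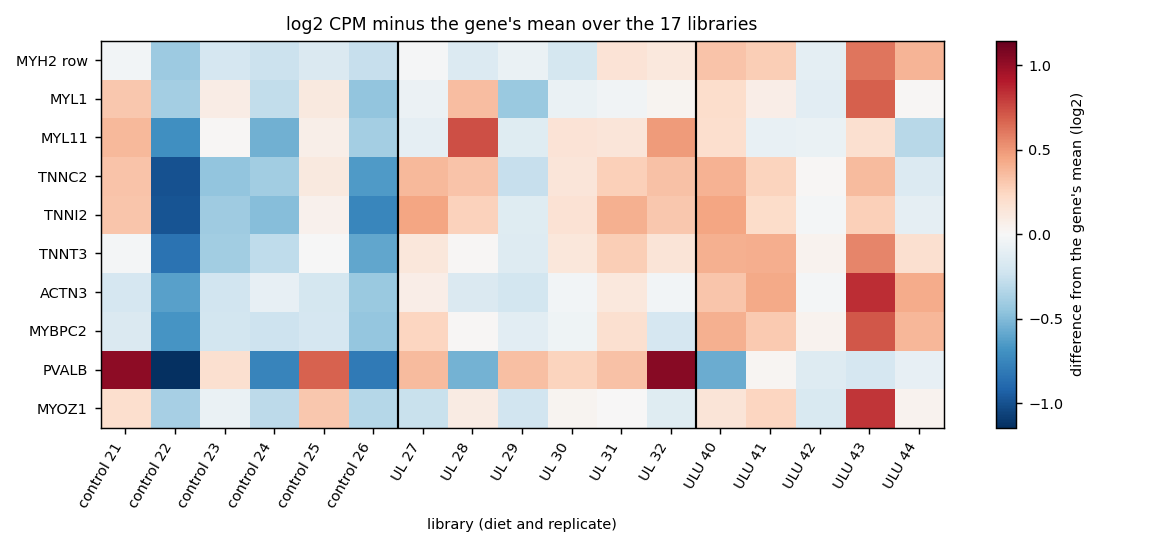
Difference of each fast fibre gene from its own mean over the 17 libraries, in log2 CPM, with 1 column per library. Control replicate 22 is the bluest column, and ULU replicate 43 is among the reddest for most genes, while PVALB follows a pattern of its own.

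Within the diets the members varied together to different degrees. After centring log2 CPM on the diet means, the Pearson correlation with the mean of the other 9 members over the 17 libraries was 0.92 for TNNT3, 0.90 for TNNI2 and 0.89 for TNNC2. It was 0.81 for MYL1, 0.79 for MYOZ1, 0.70 for MYL11 and MYBPC2, 0.67 for the MYH2 row, 0.66 for ACTN3 and 0.58 for PVALB. These libraries share their scaling factors, and each value is a description. The genes outside all lists whose centred levels were most like the members' mean were ENSSSCG00000040854 (r = 0.91), which the tables give no symbol, COX4I1 (r = 0.90), a subunit of cytochrome c oxidase, VDAC1 (r = 0.89), a channel of the outer mitochondrial membrane, SUCLG1 (r = 0.89), a subunit of an enzyme of the citric acid cycle, and RANGRF (r = 0.89), each over 17 libraries. None of the 5 passed an adjusted p under 0.05 with edgeR in any comparison, and their log2 fold changes in ULU vs control lay between 0.16 and 0.51.

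Of the members, 9 were paired with the gene for the corresponding protein of slow fibres, its counterpart, and the ratio of their counts within a library does not depend on the scaling between libraries. ACTN2 and MYBPC1, the counterparts of ACTN3 and MYBPC2, are made by fast fibres as well, so the ratios of these pairs do not set fast against slow fibres. Counts of the member exceeded those of its counterpart for all 9 pairs in all 17 libraries. The median ratio of the MYH2 row to the row of MYH7, the slow myosin heavy chain, was 25.5 in control, 16.7 in UL and 16.5 in ULU. The symbol table names the MYH7 row MYH6, and 38.9% of its exon bases lay in the RefSeq gene MYH7 and 33.5% in another RefSeq gene, so the slow side of this pair is a merged row as well. The row also overlaps that of CMTM5, on the opposite strand, over 27.0% of its exon bases, and reads that fell on both were left out. In ULU the ratio was 14.99, 10.9, 21.2, 25.8 and 16.5 in replicates 40 to 44, and 3 of these lay below all 6 controls, which ranged from 18.1 to 36.8.

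For the light chains, the median ratio of MYL1 to MYL3, the slow essential light chain, was 93.1 in control, 68.2 in UL and 64.6 in ULU. The row of MYL3 has 71.6% of its exon bases in another RefSeq gene, which limits this pair. MYL11 to MYL2, the slow regulatory light chain, stood at 20.1, 19.1 and 14.6. The exon bases of the MYL2 row lie wholly within the span of RefSeq CCDC63 as well, which limits this pair too. Among the troponins, TNNC2 to TNNC1 had medians of 11.07, 10.7 and 9.56, TNNI2 to TNNI1 had 10.3, 11.7 and 7.82, and TNNT3 to TNNT1 had 17.4, 12.5 and 10.2. ULU replicates 40, 41, 42 and 44 had TNNT3 to TNNT1 ratios of 8.45, 7.50, 11.9 and 10.2, below all controls, and replicate 43 had 26.2, above all of them. The Z-disc and thick filament pairs had medians of 2.12, 1.99 and 2.42 for ACTN3 to ACTN2, 1.51, 1.52 and 1.86 for MYBPC2 to MYBPC1, and 16.2, 15.3 and 11.8 for MYOZ1 to MYOZ2. The row taken as MYOZ2 was matched by position, which limits the last of these ratios. Of its exon bases, 25.3% lay in the RefSeq gene MYOZ2 and 100% within the RefSeq gene SEC24D.

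Over the 9 pairs, the mean log2 ratio was lower in ULU than in control for 8, all but MYBPC2 to MYBPC1. In UL it was lower than in control for the same 8, which include ACTN3 to ACTN2, and these diets overlapped for all 9 pairs. The differences in UL vs control ran from -0.57 for MYL1 to MYL3 to 0.011 for MYBPC2 to MYBPC1. They were only -0.016 for TNNI2 to TNNI1, whose median ratio was higher in UL, and -0.024 for TNNC2 to TNNC1. The differences in ULU vs control ran from -0.59 for MYL11 to MYL2 to 0.26 for MYBPC2 to MYBPC1, and the diets overlapped for all 9 pairs. For ACTN3 to ACTN2 the difference was -0.011. In ULU vs UL the ratio was lower for 5 pairs and higher for 4. These ratios were given no test.

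**Figure D4:**
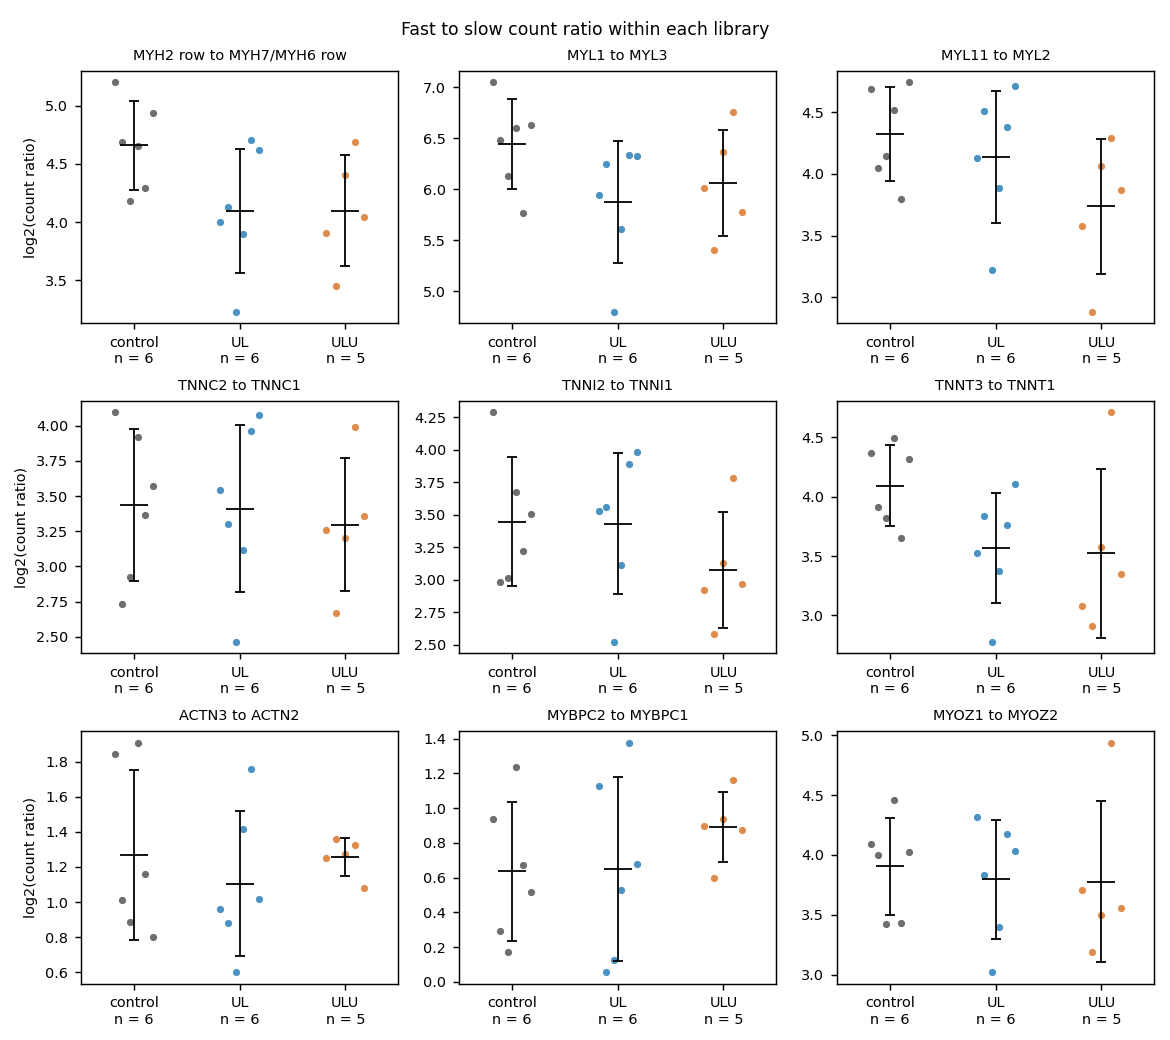
Log2 ratio of the counts of a member to those of its counterpart in every library for the 9 pairs, by diet (control and UL n = 6, ULU n = 5), with the mean and 1 SD. The diets overlap for every pair, and ULU replicate 43 is the highest ULU point for 8 of the 9.

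Of the 9 counterparts, 3 passed with edgeR in ULU vs control, all higher in ULU, where 1.99% of all genes passed in that direction. All 9 had a positive log2 fold change under each scaling tried, and the median, 0.68, is the value of ACTN2, which fast fibres make as well. MYH7 had a log2 fold change of 1.11 (edgeR adjusted p = 0.0236), TNNI1, the slow inhibitory troponin, 0.92 (edgeR adjusted p = 0.0406) and TNNT1, the slow tropomyosin-binding troponin, 1.30 (edgeR adjusted p = 0.0178). For these 3 genes 4 of the 5 ULU libraries lay above all controls. The abundant MYL2 and ACTN2 did not pass, at 0.76 and 0.68 (edgeR adjusted p = 0.120 and 0.0607). The count of 3 was 0 without ULU replicate 40 or 41, 1 without control replicate 22 and 6 without control replicate 25, and it lay between 1 and 6 with other tools and settings. The count over all genes moved as well, from 423 to between 147 and 799 with a library left out, and up to 1057 with other tools and settings.

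Of 5 other myosin heavy chains that were tested, 0 passed in any comparison with edgeR, DESeq2 or limma. At an unadjusted p under 0.05 with edgeR there was 1, MYH7B, in UL vs control, the same gene in ULU vs control and 0 in ULU vs UL. Of all genes, 10.8%, 18.9% and 10.8% had such a p in these comparisons, and 0%, 2.98% and 0.0352% passed with edgeR. The developmental forms MYH3 and MYH8 had 63.6 and 116 CPM on average in control, far below the MYH2 row. Their log2 fold changes of 0.40 and 0.19 in ULU vs control rest on ULU replicate 42, at 272 and 451 CPM, while the other 4 ULU libraries lay below the median of the controls for both genes. The list's median in ULU vs control, 0.40, is the value of MYH3.

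Other genes typical of fast fibres were tested beside the contractile set. Of 16, 3 passed with edgeR in ULU vs control, all higher, beside the 1.99% of all genes that passed in that direction: ATP2A1, the calcium pump of the fast sarcoplasmic reticulum (log2 fold change 0.65), PYGM, the muscle glycogen phosphorylase (0.76), and PFKM, the muscle phosphofructokinase (0.75). Of the named genes of this list, ATP2A1 and PYGM did not overlap between ULU and control, against 3.39% of all genes. Overlap was not counted over the rest of the list. The list's median was 0.54, 14 of the 16 were higher in ULU, or 13 with library totals only, and its most abundant genes CKM and LDHA, the lactate dehydrogenase of muscle, had log2 fold changes of 0.55 and 0.38 (edgeR adjusted p = 0.118 and 0.285). The count of 3 was 0 without ULU replicate 43, 1 without control replicate 23 or 24 and 6 without control replicate 25, and it lay between 0 and 9 with other tools and settings. For all genes, where 423 passed, these fits gave 147 to 799 with a library left out and up to 1057 with other tools and settings.

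Among 24 regulators of fibre type and muscle differentiation, 5 passed with edgeR in ULU vs control, beside 2.98% of all genes. SOX6, a transcription factor that favours the fast programme, was higher by 0.42 on the log2 scale, as were TEAD4, a transcription factor of differentiating muscle cells, by 0.79 and MYOD1, a myogenic factor, by 0.86, while MYF6, another myogenic factor, was lower at -1.10. Among the regulators named here, TEAD4 and MYOD1 did not overlap between ULU and control, against 3.39% of all genes, and overlap was not counted over the others. Of the 24, 18 were higher in ULU, with a median of 0.28, and 14 with library totals only, with a median of 0.10. The abundant MEF2A and MEF2C had log2 fold changes of 0.36 and 0.13 (edgeR adjusted p = 0.126 and 0.754). TEAD4 and MYF6 passed in all 17 fits that each left out 1 library, and SOX6 in 7, and SOX6 was 0.23 with library totals only. The count of 5 was 2 without ULU replicate 43 and 2 with library totals only, and it was 3 without control replicate 22, 23, 24 or 26, UL replicate 28 or 29 or ULU replicate 40 or 44. With a library left out, the 423 genes that passed over all genes became 147 to 799.

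The sarcomere genes listed as shared by fast and slow fibres had a median of 0.47 in ULU vs control over 11 genes, 9 of them higher in ULU. The list went by gene symbol, and how far each gene is shared between fibre types was not measured. Whether these 11 genes differ from the fast set was not tested. With library totals only, their median was 0.26 and 8 of the 11 were higher. With edgeR 3 of them passed, all higher, beside 1.99% of all genes: TPM2, a tropomyosin (log2 fold change 0.69), MYOM2, a myomesin of the M-band (0.61), and CAPZB, which caps actin filaments (0.56). TPM2 and CAPZB did not overlap between ULU and control, against 3.39% of all genes, and overlap was looked at for the named genes only. MYOM2 passed in 3 of the 17 fits that left out 1 library and was 0.38 without ULU replicate 43. ACTA1 had 0.64 (edgeR adjusted p = 0.0666) and NEB 0.13 (edgeR adjusted p = 0.691). The count of 3 was 1 without control replicate 22, 23, 24 or 26 or ULU replicate 40, 41 or 43, and 6 without control replicate 25 or ULU replicate 42, and other tools and settings gave 1 to 6. Here too the count over all genes moved, from 423 to between 147 and 799 with a library left out. In UL vs control edgeR passed 0 of the 60 counterpart, other fast, regulator and shared genes, with 17 at an unadjusted p under 0.05, against 10.8% of all genes. Of the 60, 3 passed with DESeq2 and 0 with limma. Of these 17, 7 were among the 9 counterparts, and 1 of the 7 was ACTN2, which fast fibres make as well. All 9 counterparts were higher in UL under each scaling tried, with a median of 0.56. The limits given for the rows of MYH7, MYL3, MYL2 and MYOZ2 hold here too. For ULU vs UL, edgeR passed 0 of the 60, with 14 at an unadjusted p under 0.05, against 10.8% of all genes. Of the 60, 6 passed with DESeq2 on these diets, 5 on all libraries and 0 with limma, against 1.65%, 1.57% and 0.0563% of all genes. In UL vs control these shares of all genes were 1.21%, 1.22% and 0%.

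**Figure D5:**
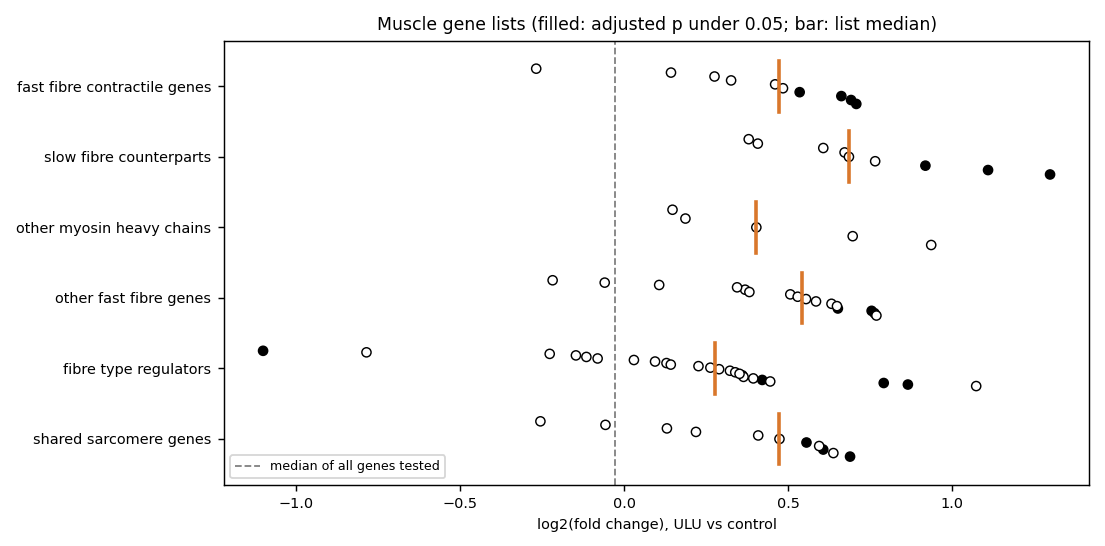
Log2 fold change in ULU vs control of each tested gene in 6 muscle gene lists, 1 point per gene, with the list's median as a bar and filled points for an adjusted p under 0.05 with edgeR. The medians of all 6 lists lie above that of all 14203 genes, which is drawn as a dashed line, with library totals only as well.

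The 4 tested adipocyte markers, 6 fibroblast markers and 6 leukocyte markers were all lower in ULU than in control, with medians of -1.23, -0.33 and -0.37 on the log2 scale, and 0 of them passed with edgeR, DESeq2 or limma. At an unadjusted p under 0.05 with edgeR there were 4 of these 16, FABP4, PDGFRA, LUM and PTPRC, against 18.9% of all genes. With edgeR, PDGFRA passed when control replicate 25 was left out, and LUM and PTPRC passed when ULU replicate 42 was left out. Over the 5 adipocyte markers the summed level had a median of 128 CPM in control, 98.8 in UL and 67.7 in ULU, and ranges of 75.9 to 580, 55.0 to 179 and 25.2 to 143 CPM. FABP4 was the most abundant, at 119 CPM on average in control, with a log2 fold change of -1.10 in ULU vs control, and ADIPOQ, at 71.2 CPM, had -1.66. The 6 fibroblast markers summed to medians of 6668, 5381 and 5106 CPM, led by COL3A1 at 3247 CPM (log2 fold change -0.31) and COL1A2 at 1181 CPM (-0.27). The 6 leukocyte markers summed to 68.8, 47.2 and 25.5 CPM, led by PTPRC at 29.3 CPM (log2 fold change -1.04) and CSF1R at 23.8 CPM (-0.43). The ranges of these sums overlapped between the diets, and no marker was at 0 in all libraries. Their part in the differences of the fast fibre genes was not tested.

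Endothelial markers, with PECAM1 and CDH5 the most abundant (log2 fold changes -0.19 and 0.27 in ULU vs control), summed to medians of 146, 150 and 137 CPM in control, UL and ULU. Satellite cell markers, led by CALCR and MYF5 (-0.10 and -0.23), gave 26.1, 25.5 and 25.8 CPM, and 1 of the 3 was higher in ULU than in control. Smooth muscle markers, led by CNN1 and ACTA2 (0.35 and 0.04), gave 148, 168 and 166 CPM, while the other 2 of the 4 were lower in ULU and the list had a median of -0.25. The erythroid genes HBB and ALAS2 (0.37 and 0.52) summed to 43.9, 66.0 and 60.5 CPM. Cardiac genes, led by ACTC1 and TNNT2 (0.64 and 0.85), summed to 653, 863 and 681 CPM, and the value of TNNT2 rests on ULU replicate 42, at 246 CPM, the only ULU library above the median of the controls. In each of these lists 0 genes passed with edgeR, DESeq2 or limma in any comparison, 0 had an unadjusted p under 0.05 with edgeR, and their part in the differences of the members was not tested either.

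The 37 genes of the mitochondrial chromosome took between 14.05% and 15.9% of the counts in control, between 8.64% and 14.8% in UL and between 8.002% and 11.6% in ULU, so control and ULU did not overlap. When the TMM factors and totals were computed without these genes, the 10 members and the 10 genes with the highest mean counts, the same 4 members passed in ULU vs control, with log2 fold changes of 0.54 for the MYH2 row, 0.66 for TNNT3, 0.71 for ACTN3 and 0.70 for MYBPC2.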

How the data were processed

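Muscle RNA of 17 piglets was sequenced by the authors, who checked the reads with FastQC, trimmed them with fastp, aligned them with HISAT2 to Sscrofa11.1 and deposited raw counts per gene of Ensembl 104 from featureCounts 2.0.1, with the exon length of each gene in bases. Strand was not used, and reads at several sites or over several genes were left out. Here the counts were analysed with edgeR 4.0.16 in R 4.3.3: TMM factors, the filter on low counts (14203 of 31908 genes kept) and the quasi-likelihood test in 1 model of all 17 libraries by diet, with Benjamini-Hochberg adjustment over all kept genes and 0.05 as the threshold. Standard errors are the log2 fold change divided by the square root of F. DESeq2 1.42.0, limma 3.58.1, other scalings, filters and subsets of libraries were alternatives, and the fits were tested on simulated data. Log2 CPM used a prior count of 2.

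Symbols came from the symbol table, the deposited names or the RefSeq positions of the same assembly, and 111 of the 121 listed genes had a row, which MYH7 shares with MYH6. The 14 lists, the members' own among them, were chosen with earlier results of these data known. Named are all members, and of each other list the genes that passed in any comparison and the 2 most abundant, every pair, and the 5 genes most like the members; MYH7B, PDGFRA and LUM are named for their unadjusted p, after their values were seen, and CTSF for its position. Of the regulators that passed, 1 is not reported here. Promoter and protein sequences are not analysed here.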

Additional observations from a re-analysis of the deposited data

Results flagged for a closer look

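Of 66 groups of values that were examined for a library far from the others, 1 stood out. Its gap passed the limit that chance exceeds in about 1 of 20 groups, here 0.625 of the range. Control replicate 25 had 23433672 counted reads, and the nearest control had 17773850, a gap of 0.797 of the whole range of the 6 controls. Its values for the 10 fast fibre genes were not the extremes of its diet except for TNNT3 and MYOZ1, where it was highest, and without it the same 4 genes passed with edgeR in ULU vs control.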

How the results depend on the processing

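The number of fast fibre genes that passed in ULU vs control was 4 with DESeq2, limma, the other scalings and a filter of at least 1 CPM in 5 libraries, 1 with edgeR on the 2 diets alone, 2 with no filter on low counts and 0 with a log2 fold change of at least 1 required, and leaving out single libraries gave 2 to 4. In ULU vs UL it was 1 with DESeq2 on the 2 diets, 1 with DESeq2 on all libraries and 0 in every other fit, and in UL vs control it was 0 in every fit. The cause was not tested. MYBPC2 passed in ULU vs control in all 17 fits that left out a library and in all 10 other fits, ACTN3 in 17 and 9, TNNT3 in 11 and 8 and the MYH2 row in 8 and 8. Signs turned only for genes that passed nowhere. MYL1 in UL vs control was -0.0065 with library totals only and from -0.033 to 0.15 with a library left out. MYOZ1 in UL vs control was 0.014 with limma, 0.010 with upper quartile scaling and from -0.056 to 0.085 with a library left out. MYL11 in ULU vs control was -0.023 with library totals only, PVALB in ULU vs control ran from -0.42 to 0.021 and TNNC2 in ULU vs UL from -0.10 to 0.052 with a library left out. Over all members, comparisons and fits, 771 gene-level values kept their sign and their side of an adjusted p of 0.05, 20 no longer passed, 2 newly passed and 17 had turned sign. Over all genes, 423 passed in ULU vs control, between 59 and 1057 under the other settings and between 147 and 799 with a library left out, each of control replicates 22 to 26 and ULU replicates 40, 41, 43 and 44 moving it by more than 1.5 times. By construction, ratios of members to counterparts per kb gave the same differences between diets as ratios of counts, so this is no check. No paired analysis was possible because no replicate number is shared between diets. Depth did not limit these genes, the lowest count being 1583.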
